A study of Mus musculus with 6 samples.

Results

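The cells described here are epithelial cells that carry Trp63 messenger RNA, 1552 of them among 35962 barcodes that passed filters and 53362 deposited barcodes. They were selected from raw UMI counts, a UMI being the tag that marks a captured RNA molecule: a barcode needed at least 2500 detected genes, at most 10% mitochondrial UMIs, at least 3 UMIs of Epcam, at least 2 of Trp63 and none of Foxa2. They made up 4.32% of the passing barcodes (95% exact binomial interval 4.11 to 4.53) and 22.9% (21.9 to 23.9) of the 6784 barcodes with at least 3 Epcam UMIs. Intervals here cover counting error only. The working label for the set was pharyngeal surface ectoderm. As the values below show, summed levels go against that label in the 342 cells (22.0%) without Wnt6, though not in each of them, so the set is called Trp63-positive epithelial cells.

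The study profiled single-cell RNA from the microdissected cardiogenic region of wild type C57BL/6 mouse embryos at E10.5 (embryonic day), a region that per the labels also holds non-cardiac mesoderm, ectoderm and endoderm. All fathers were normal glycemic. The mothers were either vehicle-pretreated and normal glycemic (3 samples) or pretreated with streptozotocin (STZ), a toxin of insulin-producing cells, and hyperglycemic (3 samples). The tissue was dissociated with TrypLE and loaded on the 10x Genomics Chromium 3′ v3 system; whether a sample is a single embryo or a pool is not given. Barcodes carry a suffix from 1 to 6, taken as the library number, which could not be linked to a sample or a maternal treatment from the files and labels used. The 2 maternal groups were therefore not compared, the libraries are described without a group, and no p-value is given.

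The surface ectoderm is the sheet of epithelium that covers the embryo. In the head and neck it lines the outside of the pharyngeal arches and dips inward at the clefts, where it meets the endoderm that lines the foregut and its pouches. The transcription factor p63, the product of Trp63, marks epithelium that will become stratified, and AP-2 factors (the Tfap2 genes) act early in the epidermal program. The ectoderm is also a source of secreted signals for the mesenchyme beneath it, among them WNT, BMP, PDGF and FGF ligands, and Fgf8 made in pharyngeal epithelium is needed for arch and outflow tract development.

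Levels are given in CPM (UMIs of a gene per 1000000 UMIs), summed over the cells of a group, with the lowest, median and highest library where it matters. The 6 libraries held 216 to 294 Trp63-positive epithelial cells each. The median cell had 27207.5 UMIs (range 7174 to 186345), 6084.5 detected genes and 2.36% mitochondrial UMIs, against medians of 29019 UMIs in the other Epcam-positive cells and 33063.5 in all other passing barcodes. Of the 1552 selected cells, 77 carried a barcode sequence that recurs among the deposited barcodes of another library, and 52 scored as likely doublets. Among all 35962 passing barcodes these counts were 2890 and 522, so doublets were called more often in the selected cells and recurring sequences less often. Leaving out either kind of barcode from all groups moved none of the 6 total counts of genes past 2-fold given below by as much as 1.5 times. The list counts were not repeated.

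The values that chose the cells are a description only. Epcam, an adhesion molecule of epithelia, stood at a median of 17 UMIs per cell (3 to 98) and Trp63 at 4 (2 to 30), and 24.4% of the cells lay exactly at the minimum of 2 Trp63 UMIs. In CPM, Epcam was 666 in the selected cells and 709 in the other Epcam-positive cells, and Trp63 was 166 and 19.7. Just outside the threshold, the 645 Epcam-positive cells with a single Trp63 UMI and no Foxa2 UMI had 161 CPM of Wnt6 and 27.4 CPM of Tfap2b. Just inside, the 378 cells with 2 Trp63 UMIs had 190 and 43.3 CPM. The 295 cells with 8 or more Trp63 UMIs had 351 and 188 CPM. Levels summed over cells thus changed by degrees across the threshold. Whether single cells lie on a slope or the mix of cells changes was not tested. The endodermal pouch factor Pax9 ran the other way, from 68.9 CPM at 1 Trp63 UMI through 51.1 CPM at 2 to 9.59 CPM at 8 or more.

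The label was first checked against 7 surface ectoderm markers. Their summed level was 487 CPM in the selected cells (401, 505 and 556 in the lowest, median and highest library) and 121 CPM in the other Epcam-positive cells, and each of the 7 was higher in the selected cells. Only 4 of them (Wnt6, Tfap2a, Tfap2c and Perp) reached 10 CPM, and the other 3 stayed below. Wnt6 had the highest level of the 7 in the selected cells. Wnt6, a WNT ligand of surface ectoderm, had a UMI in 78.0% of the cells (75.8 to 80.0), with a median of 7 UMIs per cell. In heart muscle cells, taken as a reference that should lack the gene (3233 cells with no Epcam UMI and at least 20 Tnnt2 UMIs, median depth 42794 UMIs), the share was 1.21%. With every cell thinned to 10000 UMIs, which left out 13 shallower selected cells, the shares were 71.2% and 0.187%.

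The cells without Wnt6 carried a different set of genes. Wnt6 had no UMI in 342 of the 1552 cells (22.0%, 19.996 to 24.2), from 15.6% in library 5 to 31.8% in library 6, and at least 2 UMIs in 1149 cells (74.0%). The median depth was 28251 UMIs without Wnt6 and 26713 with it, and the part of missed detection was not tested. Levels with Wnt6 in this and the next paragraph are those of the 1149 cells with at least 2 UMIs. The 61 cells with 1 UMI are in neither group. Later comparisons within cells with a Wnt6 UMI require at least 1. This division and the genes named for it were chosen after their values were seen. Foxe1, a forkhead factor of the thyroid primordium and oral epithelium, was at 312 CPM without Wnt6 (228 to 397 by library) and at 6.25 CPM (2.56 to 9.78) with it, a 50.0-fold difference (43.6 to 57.5). Shh, a ligand made by pharyngeal endoderm and oral epithelium, was 46.3-fold higher without Wnt6 (34.0 to 64.6; 56.8 and 1.23 CPM). Foxa1, a pioneer factor of endoderm, was 34.5-fold higher (25.4 to 48.0) and Sox2, a factor of foregut and placodal epithelium, 17.2-fold higher (15.5 to 19.1). Pax1 and Pax9, factors of the pharyngeal pouches, were 8.18-fold and 5.24-fold higher. Nkx2-1, which marks lung and thyroid endoderm, was near 0 on both sides, at 0.228 CPM with Wnt6 and 0.274 CPM without. The rule required no Foxa2 UMI, so the endodermal genes seen here are those that rule did not remove.

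The AP-2 genes followed Wnt6. Tfap2b was at 143 CPM in cells with at least 2 Wnt6 UMIs (113 to 188) and 2.46 CPM (0 to 10.49) in cells without, a 58.1-fold difference (39.9 to 88.2). Tfap2a, which acts in ectoderm and neural crest, was 17.3-fold higher with Wnt6 (13.8 to 22.1; 117 and 6.75 CPM). The WNT ligand Wnt3 stood at 29.1 CPM with Wnt6 and on only 3 UMIs without, and the WNT receptor modulator Kremen2 at 23.2 and 0.821 CPM. Pdgfa, a ligand for mesenchymal PDGF receptors, was 4.32-fold higher with Wnt6 (817 and 189 CPM) and Sostdc1, a secreted BMP and WNT modulator, 8.39-fold higher (285 and 34.0 CPM). General epithelial genes differed far less: the simple-epithelium keratin Krt8 was at 327 and 326 CPM, its partner Krt18 at 511 and 593 CPM, and the tight junction gene Cldn7 at 190 and 162 CPM. The direction was the same in all 6 libraries for every gene of these 2 paragraphs except Krt8 and Nkx2-1, each higher with Wnt6 in 3 libraries.

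**Figure D1:**
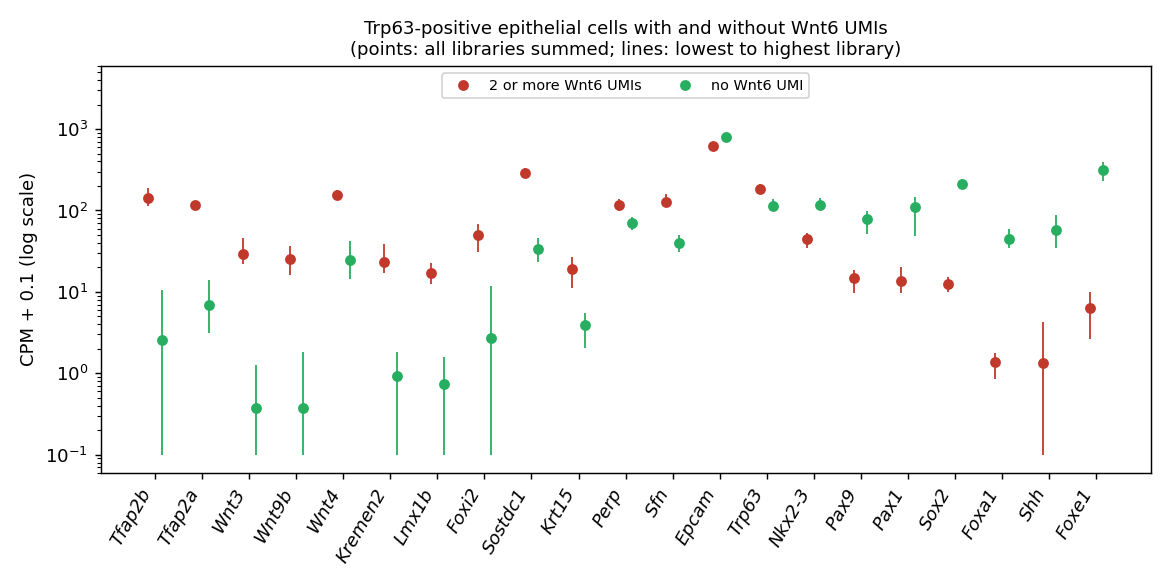
Levels of 21 genes in Trp63-positive epithelial cells with at least 2 Wnt6 UMIs (1149 cells) and with none (342 cells); points give CPM + 0.1 on a log axis over all libraries and lines run from the lowest to the highest library. Foxe1, Shh and Foxa1 lie far higher without Wnt6, Tfap2b and Tfap2a far higher with it, and Perp (118 and 69.2 CPM) differs far less.

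The 2 sets of genes were also counted cell by cell at equal depth. Among cells thinned to 10000 UMIs, Wnt6 had a UMI in 9.25% of the 292 cells with Foxe1 and in 85.6% of the 1247 without, and Shh in 40.4% and 0.882%. The separation was less sharp for other members: Wnt6 had a UMI in 29.0% of the 217 cells with Pax9, and Wnt4 in 27.1% of the cells with Foxe1. Of the 577 cells with a Tfap2b UMI, 93.9% had Wnt6 and none had Shh, Foxa1 or Pax1, which allows a share of up to 0.637% of cells with a UMI at this depth, not of cells expressing the gene. For comparison, 538 further Epcam-positive cells with at least 2 Trp63 UMIs were left out for carrying Foxa2. Those with 2 or more Foxa2 UMIs (360 cells) had 14.4 CPM of Wnt6, 225 of Foxe1 and 176 of Shh.

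Against the other 5232 Epcam-positive cells, the Trp63-positive cells had higher levels of Tfap2a, Tfap2b and Tfap2c, of 4 WNT ligands and of Pdgfa, Sostdc1 and Perp, and lower levels of single genes such as Nkx2-1, Rfx6 and Tubb3. The rule fixed the Foxa2 difference, since 1543 of the other cells carried Foxa2, and the levels of endodermal genes are given as a description. Of 6 endoderm markers at 10 CPM, 4 were at least 2-fold lower and 2 did not pass in either direction. Among 12 endoderm markers without a CPM minimum, 2 were higher in the selected cells by any amount. Nkx2-3, an endoderm marker, had a UMI in 44.6% of the selected and 31.2% of the other Epcam-positive cells (31.3% and 22.9% when thinned). Of 9305 genes at 10 CPM or more in either group, 114 (1.23%) were at least 2-fold higher in the selected cells and 132 (1.42%) at least 2-fold lower. The direction was the same in all 6 libraries for 113 of the 114 and 127 of the 132. Restricting the selected cells to those with a Wnt6 UMI, a choice made after seeing the data, gave 180 higher and 219 lower.

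The higher genes included transcription factors. Tfap2b was at 106 CPM in the selected cells (84.2, 103 and 139 in the lowest, median and highest library) against 7.70 CPM (4.89 to 9.71), 13.8-fold higher (13.0 to 14.6). No library of either group reached into the range of the other. Tfap2a was 4.40-fold higher (4.21 to 4.61; 88.6 and 20.1 CPM) and Tfap2c 4.73-fold. Lmx1b, a LIM homeobox factor, was 8.20-fold higher (12.6 and 1.54 CPM), and Barx2, a homeobox factor of ectoderm-derived organs, 4.93-fold (24.4 and 4.94 CPM). Dlx2, a distal-less factor of the arches, was 3.58-fold higher (20.4 and 5.71 CPM).

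Secreted signals and their modulators formed another group, which held the gene with the largest ratio. Kremen2, that gene, was at 17.4 CPM (12.8, 16.0 and 27.4) against 1.04 CPM, 16.7-fold higher (14.2 to 19.7), and Wnt3 at 21.5 CPM (14.5, 20.4 and 33.7) against 2.47 CPM, 8.70-fold higher (7.76 to 9.77). Sostdc1 was at 219 CPM (191, 218 and 247) against 38.9 CPM (30.4, 40.5 and 47.9), 5.62-fold higher (5.45 to 5.80). The libraries of the selected cells stood well apart from the others for each of these genes. Pdgfa was at 654 CPM (541, 636 and 765) against 138 CPM (113, 137 and 176), 4.73-fold higher (4.65 to 4.81). Jag2, a Notch ligand, was 5.99-fold higher (22.9 and 3.83 CPM), and the chemokine Cxcl14, which is made by skin, 4.78-fold (48.1 and 10.1 CPM). Nell2, a secreted glycoprotein that acts as a ligand in axon guidance, was 5.49-fold higher (30.2 and 5.51 CPM), and Sema3a, an axon repellent, 3.05-fold (188 and 61.6 CPM).

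The remaining leading genes were of other kinds. Gjb2, a gap junction protein of skin and inner ear, was 6.28-fold higher (12.9 and 2.06 CPM), the metallothionein Mt2 5.27-fold (139 and 26.3 CPM), the glycosyltransferase Galnt18 4.99-fold (111 and 22.2 CPM) and the calcium channel subunit Cacna1e 4.799-fold (10.2 and 2.13 CPM). Shares of cells with a UMI lay in the same order: Kremen2 had a UMI in 29.8% of the selected cells, 2.77% of the other Epcam-positive cells and 0.186% of heart muscle cells (16.6%, 0.989% and 0.0624% when thinned). Tfap2b had a UMI in 47.0%, 5.73% and 0.866% (37.5%, 3.54% and 0.25% when thinned).

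**Figure D2:**
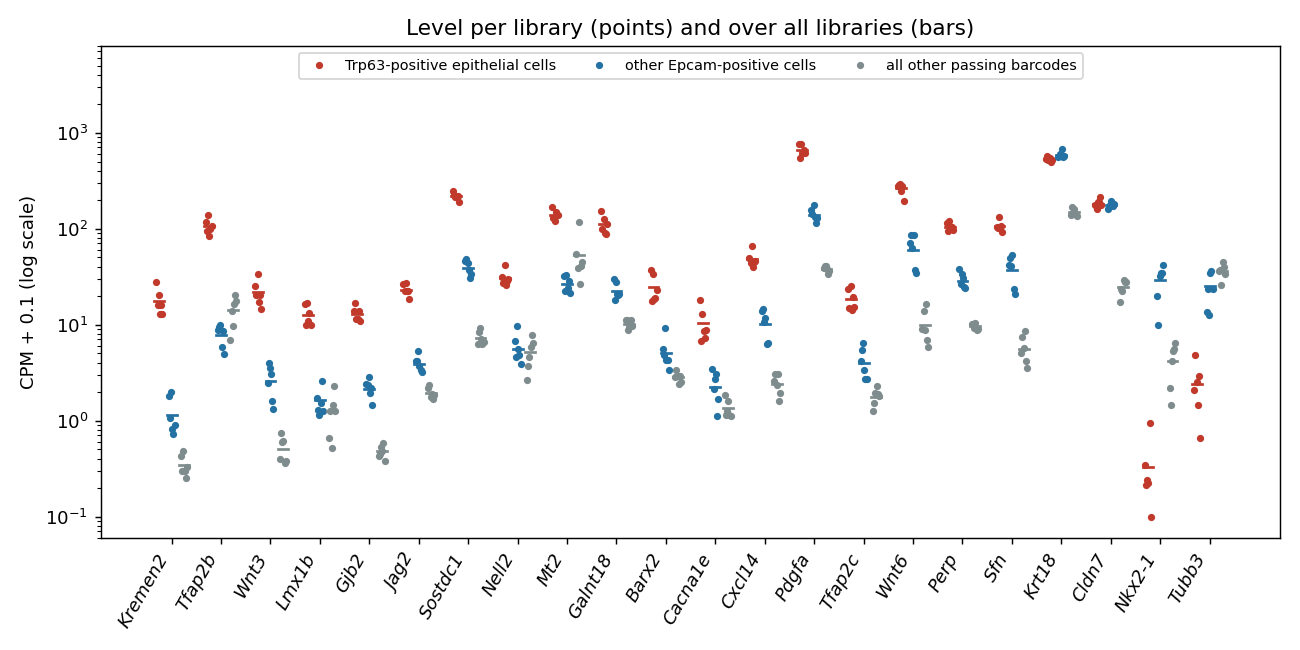
Levels of 22 genes in Trp63-positive epithelial cells, other Epcam-positive cells and all other passing barcodes; each point is a library (n = 6 per group), bars mark the level over all libraries, and the log axis shows CPM + 0.1. For Tfap2b and Pdgfa the points of the Trp63-positive cells lie above those of both other groups in all 6 libraries, while Krt18 and Cldn7 lie at similar levels in both epithelial groups.

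Among the lower genes were several of single foregut territories. Nkx2-1 was at 0.229 CPM in the selected cells and 29.3 CPM (9.76, 33.0 and 41.8) in the other Epcam-positive cells, 128-fold lower (71.5 to 257). It rested on 11 UMIs in the selected cells, and without library 5 the fold was 228. Its neighbour transcript Sfta3-ps was at 0.312 and 50.1 CPM, but 14 of its 15 UMIs in the selected cells came from library 5 and no fold is given. Rfx6, a factor of endocrine pancreas and gut, was 28.4-fold lower (43.6-fold without library 3), and Ttr, a transport protein of liver and yolk sac, 30.4-fold lower (17.5-fold without library 5). Cpn1, a liver-made carboxypeptidase subunit, was 16.6-fold lower (0.667 and 11.1 CPM).

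Of 8 heart muscle markers, 1 was at least 2-fold lower and 7 did not pass, and all 3 neuron markers at 10 CPM were lower. Nppa, a hormone of atrial muscle, was at 1.21 CPM against 21.8 CPM (3.62, 7.35 and 67.9), 18.1-fold lower, and 6.50-fold lower without library 5, the one with the highest level. Nefm and Tubb3, cytoskeletal genes of neurons, were 15.2-fold and 10.99-fold lower, and Srrm4, a neural splicing regulator, 16.6-fold lower. Galntl6, a glycosyltransferase, was 11.8-fold lower. The summed level of the neuron marker list was 16.1 CPM in the selected cells and 64.8 CPM in the others, and that of the hepatocyte list 3.69 and 65.0 CPM. In the other cells the hepatocyte sum was 7.24 CPM in the median library and 180 CPM in the highest. The part of other cell types in these differences was not tested.

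The gene lists place these differences within pathways. They were written with earlier results of these data known, so their counts are descriptive. Of 24 surface ectoderm and early epidermis genes, 16 reached 10 CPM, 7 were at least 2-fold higher than in other Epcam-positive cells and none lower, with a median log2 ratio of 0.75. Beside the AP-2 genes these included Perp, a p63 target of desmosomes (104 and 28.5 CPM, 3.66-fold), Sfn, an epidermal 14-3-3 protein (2.85-fold) and Krt15, a basal keratin (15.1 and 3.79 CPM, 3.97-fold). The basal keratins of mature epidermis were scarce, with Krt14 at 9.08 CPM (0.686 in the others) and Krt5 at 3.33 CPM. The periderm list had 3 of 9 genes at 10 CPM, of which only Arhgap29, a GTPase-activating protein, passed 2-fold. The late epithelial keratins Krt4, Krt6a and Krt13 had 1, 3 and 0 UMIs over all the cells.

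Few genes passed 2-fold over the whole table, and none of these junction and matrix genes did. None of 9 tight junction genes, 7 desmosome genes or 14 basement membrane genes at 10 CPM or more passed 2-fold in either direction, and the median log2 ratios were 0.05, 0.40 and 0.49. Krt18 was at 529 CPM (495, 521 and 564) against 588 CPM. Against all other passing barcodes more genes of each of these lists passed 2-fold, as given further on.

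Of 18 WNT ligands, 7 reached 10 CPM and 4 were at least 2-fold higher, with none lower and a median log2 ratio of 2.02. These were Wnt6 at 262 CPM (196, 280 and 295) against 60.3 CPM (34.1, 66.3 and 85.5), 4.34-fold (4.23 to 4.45), Wnt4 at 122 against 29.8 CPM, Wnt3 and Wnt9b at 18.5 against 4.60 CPM. Wnt6 lies on chromosome 1 (mm10, 74754342 to 74785322) next to Wnt10a (74792019 to 74804176), which was also higher in the selected cells but stayed below 10 CPM (3.98 and 0.727). Wnt3 and Wnt9b are likewise neighbours, on chromosome 11, and their annotated spans overlap (103774175 to 103818021 and 103727362 to 103775272). How reads in the overlap were counted was not tested. Of the 13 listed WNT feedback and modulator genes at 10 CPM, none was 2-fold higher and 2 were lower: Sp5, a direct WNT target, and Sfrp2, a secreted WNT inhibitor. Kremen2 and Sostdc1, named above as WNT modulators, are not on that list and were 16.7-fold and 5.62-fold higher.

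In the BMP list Bmp7 was 2.18-fold higher (48.4 and 22.2 CPM) and the target Msx2 2.11-fold (43.4 and 20.6 CPM; 1.98-fold without library 3 and just short of 2-fold without library 5), out of 12 genes at 10 CPM. Of 4 FGF ligands at 10 CPM, Fgf3 was 6.63-fold lower (2.56 and 17.0 CPM) and none was higher. Fgf8 itself stood at 91.9 CPM in the selected cells, 92.1 CPM in the other Epcam-positive cells and 15.6 CPM in all other barcodes. No FGF receptor or feedback gene passed 2-fold (median log2 ratio -0.24 over 13 genes). None of 13 glycolysis genes and none of 15 cell cycle genes passed 2-fold either, and with 1.23% and 1.42% of all genes called, lists of this length say little.

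Hox genes, which give cells their position along the body axis, were mostly lower. Of 9 at 10 CPM in either group, 6 were at least 2-fold lower and none higher (median log2 ratio -1.51). Hoxb1 was at 9.41 and 30.9 CPM (3.28-fold) and Hoxb4 at 9.87 and 35.2 CPM (3.56-fold), whereas Hoxb2 was at 92.3 and 104 CPM. In the retinoic acid list only the synthetic enzyme Aldh1a1 passed, 10.49-fold lower (2.94 and 30.8 CPM). The placode list had 1 of 10 genes higher and 3 lower, among them Neurog2, a neurogenic factor of the epibranchial placodes, at 4.92 and 28.8 CPM (5.86-fold, and 12.6-fold without library 4).

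**Figure D3:**
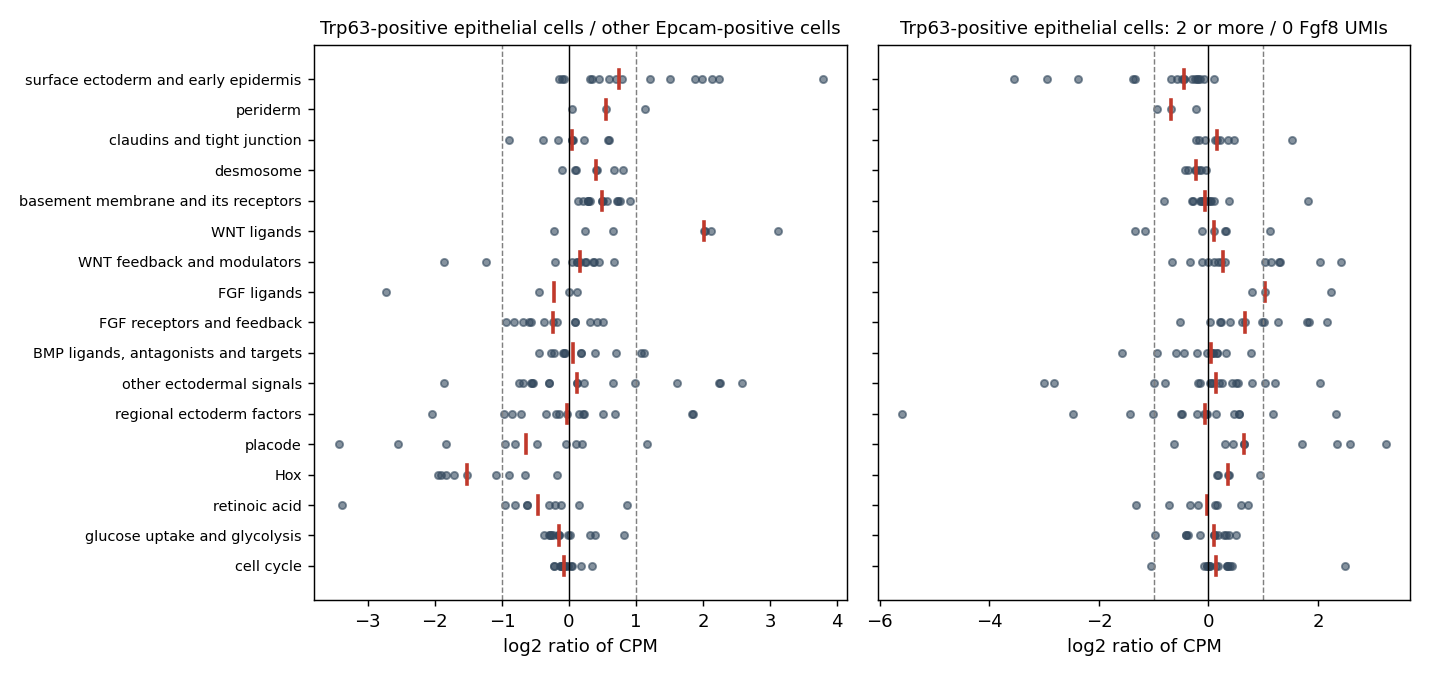
Log2 ratio of each listed gene at 10 CPM or more in the higher group, by gene list, for Trp63-positive against other Epcam-positive cells and for Fgf8-high against Fgf8-zero cells; red bars are list medians, dashed lines mark 2-fold, and Pitx1 in the second panel is drawn at its lower bound. In the first panel the median of the WNT ligands lies to the right of 2-fold and that of the Hox genes to the left, and in the second the medians of the placode and the FGF receptor and feedback genes lie between 0 and 2-fold.

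Against all other 34410 passing barcodes, most of them not epithelial, 605 of 9511 genes (6.36%) were at least 2-fold higher in the selected cells and 516 (5.43%) at least 2-fold lower. The median log2 ratio over the genes tested was 0.12, and ratios are to be read against that shift: scaled by the median of ratios, the counts were 533 higher and 565 lower. All 16 of the surface ectoderm genes at 10 CPM were higher (median log2 ratio 3.16), as were all 9 tight junction genes (2.90). So were 10 of 14 basement membrane genes (1.60) and 4 of 7 desmosome genes (1.00). Of 5 endoderm markers at 10 CPM, 4 were higher too (Foxa1, Pax1, Pax9 and Nkx2-3, the last 9.13-fold) and none was lower. Several of the genes named above had the largest ratios: Kremen2 was 71.7-fold higher (62.8 to 82.0), Wnt3 52.7-fold, Gjb2 34.3-fold, Sostdc1 30.6-fold, Wnt6 26.6-fold (26.0 to 27.3), Wnt9b 25.4-fold and Pdgfa 17.4-fold.

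Other leading genes against all barcodes included Galr1, a galanin receptor (12.4 and 0.486 CPM, 25.5-fold), Fermt1, an integrin activator of basal epithelium (145 and 7.03 CPM, 20.6-fold), Mir205hg, the host transcript of an epithelial microRNA (53.8 and 2.62 CPM, 20.5-fold) and Sp6, a factor of ectodermal appendages (11.2 and 0.576 CPM, 19.4-fold). Cxcl14, Krt15 and Sfn were 20.9-fold, 20.02-fold and 19.0-fold higher. The lower genes with the largest ratios included the platelet and myeloid chemokine Pf4 (0.146 and 31.4 CPM, 215-fold, 104 to 535), the heart hormones Nppb (97.3-fold) and Nppa (79.3-fold) and the endothelial cadherin Cdh5 (15.7-fold, and 32.9-fold without library 1). Tubb3 was 15.8-fold lower, Hmx1, a factor of craniofacial mesenchyme, 14.9-fold, Foxd1, a stromal factor, 14.2-fold, Ctla2a, a protease inhibitor, 12.2-fold (19.6-fold without library 2), Tcf21, a mesenchymal factor, 12.1-fold, and Barx1, a factor of arch mesenchyme, 11.9-fold.

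Fgf8 divided the Trp63-positive cells. It had at least 2 UMIs in 362 cells (Fgf8-high, 23.3%, 21.2 to 25.5) and none in 1080 (Fgf8-zero, 69.6%), and the Fgf8-high share ran from 19.9% in library 3 to 26.7% in library 4. The Fgf8-high cells were deeper, at a median of 32882.5 UMIs against 25338. Any Fgf8 UMI was present in 30.4% of the selected cells and in 23.2% of heart muscle cells. Thinned to 10000 UMIs the shares were 21.6% and 10.6%. At 2 or more UMIs the shares were 23.3% and 13.5%, or 14.9% and 3.31% when thinned. In the other Epcam-positive cells the share at 2 or more was 27.7%, or 16.9% when thinned. Whether Fgf8 UMIs in heart muscle cells are free RNA or expression was not tested. Nor was it tested whether free RNA placed cells in the Fgf8-high group. Of 9308 genes, 175 (1.88%) were at least 2-fold higher in Fgf8-high cells and 135 (1.45%) at least 2-fold lower, with the same direction in all 6 libraries for 164 and 120. Among the higher genes were the FGF feedback genes Etv4 and Etv5, Eya1 and the WNT target Axin2, and among the lower ones Krt14, Krt15, Krt19, Wnt4, Perp and Tfap2b.

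Of 13 FGF receptor and feedback genes, 5 were at least 2-fold higher and none lower, with a median log2 ratio of 0.67. The ETS factor Etv5 was at 32.9 CPM in Fgf8-high cells (29.9, 33.2 and 38.2 in the lowest, median and highest library) and 9.27 CPM in Fgf8-zero cells (5.69, 10.4 and 11.6), 3.55-fold higher, and the 2 ranges do not overlap. Etv4 was 4.49-fold and Etv1 3.50-fold higher, and the phosphatase Dusp6, a feedback inhibitor, 2.41-fold (54.1 and 22.4 CPM). Spry2, a feedback inhibitor of receptor signalling, was 2.02-fold higher with overlapping libraries, and fell short of 2-fold without library 5 (1.96-fold) or library 3. The receptor Fgfr2 was at 138 and 199 CPM. A further ligand, Fgf9, was at 31.5 CPM (18.4, 32.3 and 41.8) and 6.69 CPM, 4.71-fold higher (3.98 to 5.60).

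Of 9 placode genes, 4 were at least 2-fold higher and none lower, with a median log2 ratio of 0.66. Eya1, a transcriptional coactivator of pre-placodal ectoderm and pharyngeal epithelium, was at 278 CPM in Fgf8-high cells (231, 283 and 318) and 84.7 CPM in Fgf8-zero cells (77.8, 82.2 and 95.6), 3.28-fold higher (3.12 to 3.45). Its libraries did not overlap between the groups. Pax8, a factor of the otic and thyroid primordia, was 5.98-fold higher (14.1 and 2.35 CPM) and Neurog2 9.49-fold, both with overlapping libraries. Neurog2 ran from 2.83 to 42.9 CPM among the Fgf8-high libraries, library 4 being the highest.

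Regional factors divided in both directions, 2 higher and 4 lower of 16. Irx1, an Iroquois factor, was at 58.3 CPM (31.8, 65.1 and 74.1) and 11.5 CPM (9.49 to 15.04), 5.05-fold higher, and Tbx1, a pharyngeal factor that regulates Fgf8, was 2.27-fold higher (1.94-fold without library 2). Pitx1, a factor of the mandibular and hindlimb fields, had no UMI in the 362 Fgf8-high cells and 11.04 CPM in Fgf8-zero cells (0.736, 9.06 and 26.1 by library). Against a floor of 3 UMIs over the group it was at least 48.2-fold lower. Without library 5, the bound was 31.3-fold. Foxe1 was at 19.6 CPM (7.78, 17.6 and 31.6) and 109 CPM (91.7, 106 and 132), 5.53-fold lower, with no overlap.

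WNT genes went both ways. Of 14 feedback and modulator genes, 6 were higher and none lower: the targets Axin2 (22.4 and 10.1 CPM, 2.22-fold), Sp5 (5.34-fold), Nkd1 (2.05-fold, 1.84-fold without library 1) and Tcf7 (2.47-fold), and the agonists Rspo2 (57.7 and 13.99 CPM, 4.13-fold) and Rspo3 (2.43-fold, 1.88-fold without library 2 and 1.99-fold without library 1). Of 7 ligands, Wnt9b was 2.17-fold higher with overlapping libraries (1.94-fold without library 5), while Wnt4 (59.0 and 150 CPM, 2.54-fold) and Wnt7b (7.64 and 17.1 CPM, 2.23-fold) were lower. Wnt6 was at 275 and 257 CPM, higher in 4 libraries and lower in 2. The BMP decoy receptor Bambi was 2.97-fold lower (51.2 and 152 CPM) and the only one of 13 BMP genes to pass 2-fold. The Notch ligand Jag1 was at 116 CPM (95.5, 103 and 159) and 28.2 CPM (24.1, 28.7 and 31.5), 4.11-fold higher.

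Of 17 surface ectoderm and epidermis genes, 5 were at least 2-fold lower in the Fgf8-high cells, none was higher and 12 did not pass. Krt15 was at 1.83 CPM and 21.4 CPM (12.9, 21.8 and 29.0), 11.7-fold lower (7.79 to 18.4), and Krt14, the basal keratin of epidermis, at 1.68 and 12.9 CPM, 7.68-fold lower. Krt19, a keratin of simple and transitional epithelium, was at 21.4 CPM (16.2, 21.2 and 27.1) and 112 CPM (104, 110 and 124), 5.23-fold lower (4.63 to 5.93). The libraries of the 2 groups lay far apart for Krt19. These 3 keratin genes lie in the same region of chromosome 11 (mm10). Krt15 spans 100131759 to 100135949, Krt19 100140810 to 100145926 and Krt14, farther off, 100203162 to 100207510. Perp was 2.60-fold lower (49.6 and 129 CPM) and Tfap2b 2.52-fold (51.8 and 131 CPM). Krt8 was at 247 and 368 CPM and Krt18 at 428 and 582 CPM, both short of 2-fold.

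The genes with the largest differences upward were mostly outside these lists. Rarres1, a retinoid-responsive gene, was at 250 CPM in Fgf8-high cells (149, 262 and 359) and 18.6 CPM in Fgf8-zero cells (2.57, 17.5 and 38.1), 13.4-fold higher (12.3 to 14.7), and had a UMI in 31.8%, 5.0% and, in heart muscle cells, 9.53% (25.4%, 3.64% and 3.46% when thinned). Trpm3, a cation channel, was at 289 CPM (214, 273 and 404) and 32.9 CPM (19.5, 29.8 and 58.0), 8.78-fold higher (8.19 to 9.41). Libraries did not overlap for either gene. Stac, an adaptor of calcium channels, was 21.4-fold higher (17.2 and 0.804 CPM) and Stap1, a signalling adaptor, 14.7-fold (14.2 and 0.965 CPM). Stap1 ran from 2.12 to 42.9 CPM among the Fgf8-high libraries, overlapped with the Fgf8-zero ones and was 43.3-fold higher without library 1 and 8.76-fold without library 5.

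A proton pump subunit, Atp6v1c2, was 12.5-fold higher (28.6 and 2.28 CPM), the meiosis-linked Sycp2l 11.4-fold (29.0 and 2.54 CPM) and Lypd1, a modulator of acetylcholine receptors, 11.1-fold (35.6 and 3.22 CPM). Fyb2, an adaptor protein, was 9.99-fold higher, Ndnf, a secreted neurotrophic factor, 9.42-fold, and the phosphodiesterases Pde8a and Pde1a 9.04-fold and 8.07-fold. Ctxn3, a small membrane protein, was 8.55-fold higher, Lrrn1, a leucine-rich repeat protein, 8.38-fold, and Mcf2, a guanine nucleotide exchange factor, 8.22-fold (16.2-fold without library 1), with overlapping libraries for Ctxn3 and Mcf2. Among the largest differences downward outside the keratins, Cxcl14 was 8.02-fold lower (8.10 and 65.0 CPM), the carbonic anhydrase Car4 9.50-fold (1.53 and 14.5 CPM) and the ubiquitin ligase Rnf144b 6.77-fold. Tac2, a tachykinin, was 9.27-fold lower (3.59 and 33.3 CPM) and Spock3, a proteoglycan, 9.27-fold (1.45 and 13.5 CPM). Tac2 in Fgf8-high cells came mostly from library 2, the other 5 libraries holding 2 UMIs in all, and Spock3 was 16.3-fold lower without library 4.

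In the cell cycle list 1 gene passed 2-fold each way. Cdkn1a, the inhibitor p21, was at 162 CPM in Fgf8-high cells (71.1, 177 and 243) and 28.8 CPM in Fgf8-zero cells (20.8 to 36.3), 5.65-fold higher (5.22 to 6.11). Its lowest Fgf8-high library stood above every Fgf8-zero library. It had a UMI in 68.0%, 31.0% and, in heart muscle cells, 22.7% (50.8%, 17.9% and 10.6% when thinned). Cdkn1c, the inhibitor p57, was 2.06-fold lower (290 and 597 CPM; 1.92-fold without library 2 and 1.98-fold without library 6). Mki67, a proliferation marker, was at 173 and 170 CPM.

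Some of these genes are shown over steps of Fgf8 UMIs, as a description of the same cells that chose them. Over cells with 0, 1, 2 to 4, 5 to 9 and 10 or more Fgf8 UMIs (1080, 110, 113, 93 and 156 cells), Eya1 was at 84.7, 158, 223, 306 and 294 CPM. Cdkn1a was at 28.8, 63.3, 104, 139 and 213 CPM and Etv5 at 9.27, 19.3, 27.1, 24.2 and 41.7 CPM. Krt19 was at 112, 57.6, 27.7, 18.3 and 19.3 CPM, most of its difference lying between 0 and 4 UMIs. Wnt6 showed no such course, at 257, 254, 244, 264 and 301 CPM.

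**Figure D4:**
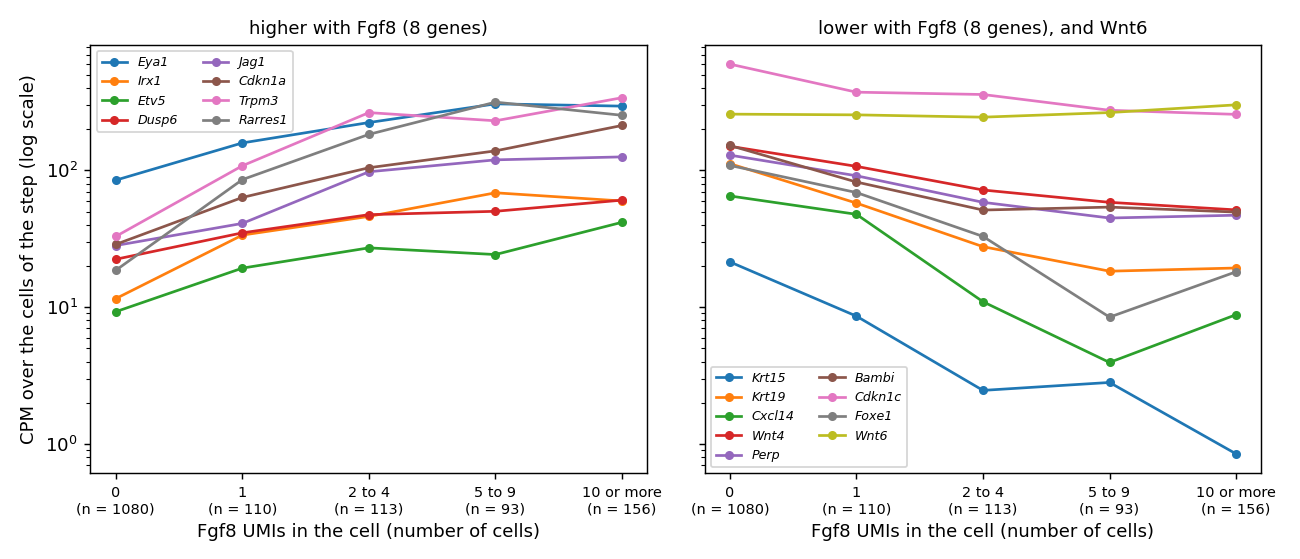
Levels in CPM of genes of Trp63-positive epithelial cells over 5 steps of Fgf8 UMIs per cell, summed over all libraries. Eya1, Etv5 and Cdkn1a lie higher and Krt15, Krt19 and Wnt4 lower at the upper steps than at 0, while Wnt6 stays between 244 and 301 CPM.

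Because cells without Wnt6 made up 10.2% (7.30 to 13.8) of the Fgf8-high and 25.6% (23.1 to 28.4) of the Fgf8-zero cells, the contrast was repeated within cells with a Wnt6 UMI (325 and 803 cells), an alternative added after seeing the data. Eya1 was then 3.79-fold, Etv5 3.89-fold, Jag1 3.96-fold and Cdkn1a 5.48-fold higher, close to the values over all cells. Krt15 was 13.9-fold, Krt19 5.73-fold, Cxcl14 9.68-fold and Wnt4 2.99-fold lower. Sp5 was 10.8-fold (14.7 and 1.37 CPM), Tbx1 4.19-fold and Sycp2l 25.1-fold higher, each farther apart than over all cells, while Wnt9b was 1.78-fold higher and no longer passed 2-fold. The genes tied to the cells without Wnt6 behaved otherwise. Foxe1 was 2.03-fold lower in place of 5.53-fold, Ttc6, a repeat protein, 2.002-fold in place of 6.998-fold, and Rarb, a retinoic acid receptor, 1.38-fold in place of 2.51-fold. Shh, 7.05-fold lower over all cells (14.1-fold without library 4), was at 0.778 and 2.82 CPM. The pouch factors Pax1 and Pax9, which were 2.19-fold (1.94-fold without library 2) and 2.47-fold higher over all cells, were 13.3-fold (10.53 to 16.98; 48.1 and 3.62 CPM) and 11.9-fold (9.40 to 15.3; 42.6 and 3.57 CPM) higher among the cells with Wnt6.

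Markers of other cell types were summed in the same groups. Foregut endoderm markers (12 genes) summed to 162 CPM in the selected cells (136 to 191 by library) and 311 CPM in the other Epcam-positive cells, and to 185 CPM in Fgf8-high and 152 CPM in Fgf8-zero cells, although 8 of the 12 were higher in Fgf8-zero cells. Placode markers summed to 440 CPM in Fgf8-high and 191 CPM in Fgf8-zero cells, with Oc90, an otic gene, at 0 in the whole set, and crest mesenchyme markers to 260 and 179 CPM, although 6 of 10 were higher in Fgf8-zero cells. Neuron markers summed to 27.5 CPM in Fgf8-high cells (7.58 to 54.2 by library) and 11.3 CPM in Fgf8-zero cells (9.32 to 16.9). However, 2 of these 5 markers were higher in Fgf8-zero cells, and Tubb3 had a UMI in 2.49% of Fgf8-high and 4.63% of Fgf8-zero cells. Stmn2, the only 1 at 10 CPM, was 7.93-fold higher in Fgf8-high cells and 4.35-fold without library 4. Epicardium markers summed to 7.18 and 20.5 CPM. Heart muscle markers summed to 774 and 722 CPM, and to 5007 CPM in all other barcodes. Ptprc, which defines blood leukocytes, was the only 1 of 5 myeloid markers without a UMI in the selected cells. Olig2, which defines ventral neural tube, was the only 1 of 6 neural tube markers without one. The myeloid and neural tube lists summed to 1.31 and 1.73 CPM in the selected cells. Myeloid markers summed to 2.60 CPM in Fgf8-high cells (0.752 to 8.47 by library) and 0.772 CPM in Fgf8-zero cells, although 2 of the 5 were higher in Fgf8-zero cells. Erythroid markers were at 1496 CPM in Fgf8-high (75.6 to 7327 by library) and 5531 CPM in Fgf8-zero cells (104 to 13503), and all 8 were higher in Fgf8-zero cells. Of the hemoglobin UMIs in the selected cells, 97.6% lay in 78 cells, and the median cell had 91.2 CPM in the Fgf8-high and 109 CPM in the Fgf8-zero group. Without barcodes whose hemoglobin exceeded 1% of UMIs, which left 1544 of the 1552 selected cells and 361 of the 362 Fgf8-high cells, the Fgf8 contrast gave 173 higher and 131 lower genes. The part of the other marker lists in the contrast was not tested.

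Trp63-positive cells were 18.4% of Epcam-positive cells in library 5 and 27.5% in library 1, and the counting intervals of these 2 libraries do not overlap. Those of the Fgf8-high share overlap between all libraries. Since the extent of the dissection, the embryo and the maternal treatment behind each library are not known here, their part in these differences cannot be told apart.

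**Figure D5:**
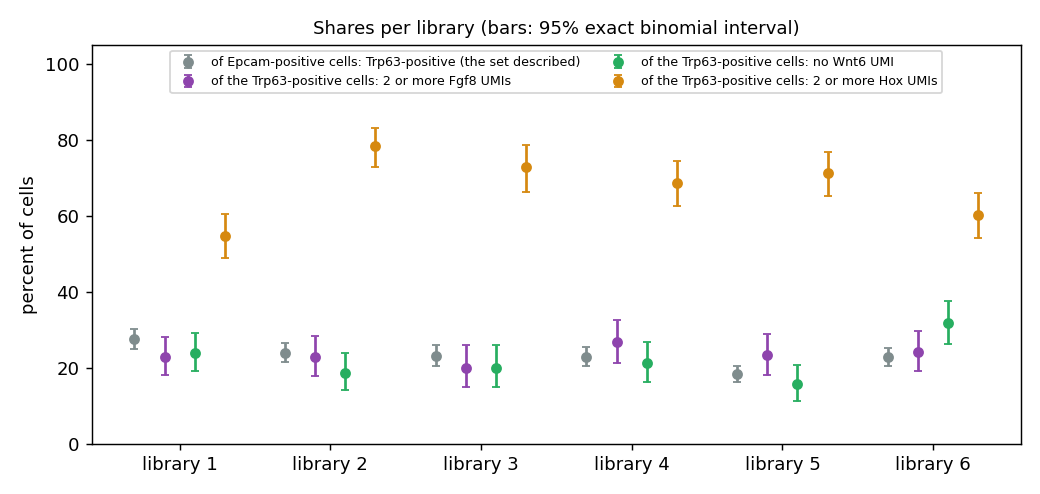
Shares by library with 95% exact binomial intervals for the Trp63-positive epithelial cells, 6 libraries named by the number at the end of their barcodes. Plotted are their share of Epcam-positive cells and, among them, the shares with at least 2 Fgf8 UMIs, with no Wnt6 UMI and with at least 2 Hox UMIs; the share without a Wnt6 UMI runs from 15.6% to 31.8%, and the Fgf8-high share from 19.9% to 26.7%.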

How the data were processed

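RNA was measured in 6 samples, and the authors deposited 1 matrix of UMI counts (whole numbers) for all of them, with 32285 genes and 53362 barcodes. Per the submitters' processing notes, Cell Ranger 5.0.0, build mm10, CASAVA 1.8 and Seurat 4 were used. No label or file header states the annotation release or how cells were called. The labels' descriptions name a chromatin assay, while title, library source and kit name RNA, so the values were treated as RNA counts. Library totals ran from 200462921 to 248426458 UMIs.

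Cells were selected with the stated thresholds, UMIs were summed over a group and divided by its total (CPM), and a gene was counted at 10 CPM or more in the higher group and at least 2-fold. Since no library could be assigned to a sample or treatment, the matrix was treated as 1 sample. The groups were chosen from the same counts that are compared, so no test was run on them, and libraries are given as ranges and directions. Ratios have 95% conditional binomial intervals, shares exact binomial ones, and a count of 0 a floor of 3. For equal depth, cells were thinned to 10000 UMIs. The libraries belong to no known group, so none was tested as an outlier. Doublets were not removed. A Scrublet-style score, cut at the 75th percentile of simulated doublets and tried as an alternative, called 1.01 to 1.51% of barcodes per library.

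The members and gene lists were chosen with earlier results of these data known. Named genes are the 15 highest and 10 lowest ratios per comparison with the same direction in every library of at least 20 cells in both groups, without the selecting genes, sex-linked, mitochondrial, Gm-numbered and Rik genes. Lists are given by counts with a few members by level or ratio. Some genes that these rules pick are not reported here. Other named genes were chosen after their values were seen. Coordinates are RefSeq's for GRCm38.p6, the assembly of mm10. Aldoa was left out because its symbol is not unique.

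The script was checked on simulated counts. Alternatives changed the gene and mitochondrial limits, the Trp63, Epcam and Fgf8 minimums, the CPM minimum, the scaling, depth, doublets and single libraries. Python 3.11.15, numpy 2.4.6, scipy 1.17.1, pandas 2.3.3 and scanpy 1.11.5 were used.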

Additional observations from a re-analysis of the deposited data

How the results depend on the processing

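No paired test was run, since no result here comes from a test. The replicate numbers in the labels belong to the maternal groups, which were not compared. Described within libraries, the median ratio gave 107 higher and 134 lower genes against other Epcam-positive cells, 595 and 513 against all other barcodes and 175 and 149 for Fgf8. The share of Trp63-positive cells among passing barcodes (4.32%) was 3.88% with 1500 genes per barcode, 4.66% with 4000, 2.50% with at least 4 Trp63 UMIs, 3.98% with at least 6 Epcam UMIs and 3.36% with a Wnt6 UMI required. The Fgf8-high share (23.3%) was 14.7% after thinning (14.9% in the separate draw behind the shares of cells) and 26.9% with Wnt6 required. The share with at least 2 Hox UMIs (67.1%) was 39.5% (40.2% in the separate draw) and 71.1% under the same choices and 64.9 to 70.0% with a library left out. At 5 CPM, 209 genes were lower than in other Epcam-positive cells and 233 lower in Fgf8-high cells. At 30 CPM the counts were 62 higher and 44 lower against other Epcam-positive cells, 295 and 242 against all other barcodes and 95 and 56 for Fgf8. With Wnt6 required, an alternative chosen after seeing the data, they were 180 and 219 against other Epcam-positive cells. For other settings each count stayed within 1.5 times and each share within its interval. A CPM minimum is a depth limit, since 10 CPM in the Fgf8-high cells rests on far fewer UMIs than in the larger groups.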

Other observations

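The Trp63-positive cells were also described by their Hox UMIs. At least 2 UMIs summed over 26 Hox genes were found in 1042 cells (67.1%), from 54.8% in library 1 to 78.3% in library 2. Among Fgf8-high and Fgf8-zero cells the shares were 69.6% and 66.2%, or 45.5% and 38.3% when thinned. In the heart muscle reference cells the share was 26.3%. After thinning it was 40.2% in the selected cells and 8.08% in heart muscle cells. The other Epcam-positive cells had a higher share than the selected cells, at 78.5%, or 57.9% when thinned. Whether Hox UMIs in heart muscle cells are free RNA or expression was not tested, so the threshold may not by itself mark cells that express Hox genes. The 324 cells without a Hox UMI (median depth 24959 UMIs) were compared with these 1042 (28997.5), and the genes below were chosen after their values were seen. Wnt6 had no UMI in 37.7% (32.4 to 43.2) of the cells without Hox UMIs and 17.5% (15.2 to 19.9) of those with them, so ratios are also given within cells with a Wnt6 UMI (202 and 860 cells), an alternative added after seeing the data. With Hox UMIs, the BMP ligand Bmp4 was at 84.0 CPM against 27.6 CPM (3.05-fold, 2.26-fold within cells with Wnt6), its target Msx2 at 51.8 and 19.2 CPM (2.69-fold, 2.09-fold within) and the decoy receptor Bambi at 143 and 51.4 CPM (2.77-fold, 2.12-fold within), in all 6 libraries. Foxi2, an ectodermal forkhead factor, was 3.69-fold higher (46.7 and 12.6 CPM; 2.89-fold within), and Tac2 was at 31.4 and 0.432 CPM. Twist1 and Col1a2, which are abundant in mesenchyme, were also higher, at 29.1 and 4.54 CPM (6.41-fold, 4.08-fold within) and at 41.2 and 3.13 CPM (13.2-fold, also within), and the part of mesenchymal RNA was not tested.

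Other genes were higher in the cells without Hox UMIs. Pitx1 was at 28.3 CPM without and 2.20 CPM with Hox UMIs (12.9-fold, 16.8-fold within cells with Wnt6, with 1 library the other way) and Pax1 at 101 and 21.3 CPM (4.73-fold, in 5 of 6 libraries; 5.99-fold within, in all 6). Rarres1 was 6.75-fold (8.32-fold within) and Cdkn1a 3.11-fold (3.62-fold within) higher without Hox UMIs. Otx2, an anterior head factor, was 3.09-fold higher (18.3 and 5.90 CPM), but within cells with Wnt6 it was at 9.52 and 6.98 CPM, a ratio whose interval (0.992 to 1.85) includes no difference. Krt15 (14.4 and 14.7 CPM with and without) and Fgf8 (96.3 and 81.8 CPM) differed little.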
